A study of Saccharomyces cerevisiae with 6 samples.

Results

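The comparison asks what the loss of IFH1 adds in Saccharomyces cerevisiae cells that already lack FHL1. It sets the 2 Affymetrix arrays of a double mutant in which FHL1 and IFH1 are both deleted (the double deletion) against the 2 arrays of a strain deleted for FHL1 alone, so both groups share the FHL1 deletion. These are 4 of the 6 arrays of the series, and the other 2 are wild type (WT). The labels give total RNA, growth at 30 °C and a first and a second experiment for each group. The sources used here give no strain background, mating type, selection marker or medium, and do not say whether the 2 arrays of a group came from separate cultures. The p-values therefore measure only the spread between these arrays. In each deletion group that spread includes a difference in mating type markers, described below, and in WT it may be technical. Of 9335 probe sets on the array, 6504 are annotated to 1 gene, and the brightest of each gene gave values for 5656 genes, of which 4242 were bright enough to test. All signals are scaled log2 values, so a difference of 1 is a 2-fold change, and in every pair of values the first experiment stands first.

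FHL1 encodes a forkhead protein that sits at the promoters of ribosomal protein genes, and IFH1 encodes a coactivator that docks on its forkhead-associated domain when nutrients are plentiful. Under stress or when the TOR kinases are inhibited, the corepressor CRF1 can take the place of IFH1. IFH1 also occurs with casein kinase 2, UTP22 and RRP7 in a complex that links ribosomal protein transcription with the processing of ribosomal RNA. The comparison therefore shows where transcripts differ when IFH1 is absent and its docking partner is already missing.

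IFH1 (YLR223C, chromosome XII) was the 1 gene called between the 2 strains. Before flooring its signal was 4.93 and 5.39 on the double deletion arrays, against 8.91 and 8.92 on those of the FHL1 deletion and 8.38 and 8.63 in WT. Both double deletion values lay under the floor of 5.63, the 10th percentile of the named probe sets, below which signals were not told apart from background. Measured from that floor, IFH1 was at least 9.75-fold lower in the double deletion than in the FHL1 deletion (difference -3.29, SE 0.15, 95% interval -3.64 to -2.93, limma adjusted p = 0.000339). Both double deletion values in this fit equal the floor, so the interval is that of the floored difference and takes no spread from them. IFH1 was at least 7.35-fold lower in the double deletion than in WT.

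FHL1 itself (YPR104C, chromosome XVI) did not reach the floor on any of the 6 arrays, and no fold was computed. Its unfloored scaled signal was 2.64 and 2.88 in the double deletion and 3.15 and 2.59 in the FHL1 deletion, whose arrays overlap, against 4.97 and 5.08 in WT. The genes next to IFH1 on the chromosome showed no such loss. UTP13, a small-subunit processome protein, had 9.93 and 9.73 in the double deletion and 9.54 and 10.01 in the FHL1 deletion (difference 0.050, interval -0.43 to 0.53). UCC1, an F-box protein, had 9.79 and 9.74 in the double deletion and 9.59 and 9.81 in the FHL1 deletion. Beside FHL1, the vesicle-tethering gene COG4 differed by -0.11. PRE2, a catalytic subunit of the proteasome, had 8.07 and 8.16 in the double deletion, 8.61 and 8.27 in the FHL1 deletion, against 10.32 and 10.80 in WT. It was thus low in both deletion strains, and the -0.32 between them did not pass the test (interval -0.79 to 0.15).

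**Figure D1:**
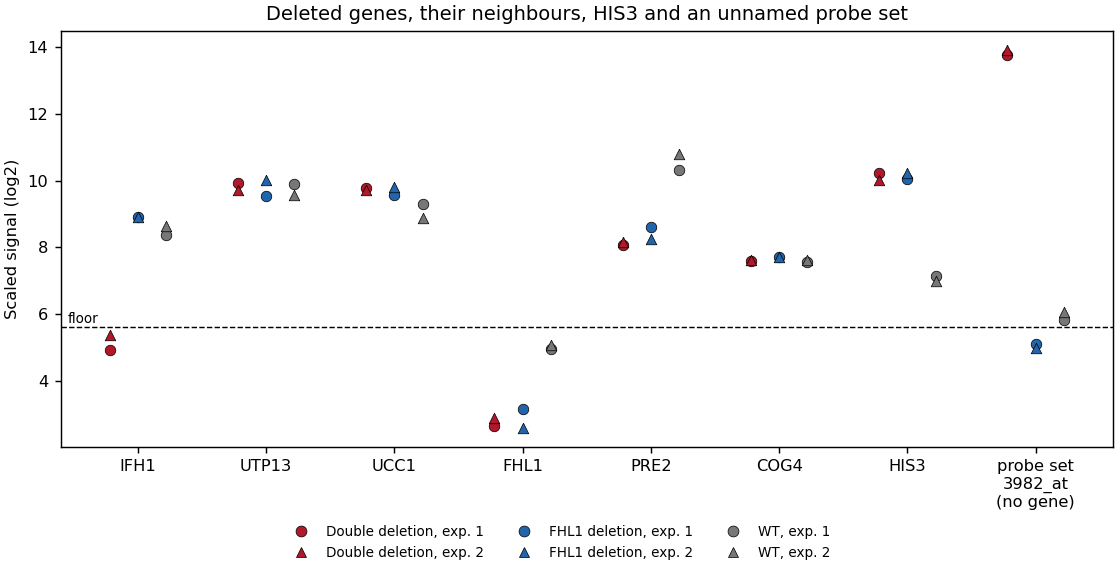
Scaled log2 signal before flooring of IFH1, FHL1, the genes beside them, HIS3 and a probe set with no gene name, 1 point per array (circles first experiment, triangles second). IFH1 lies under the dashed floor of 5.63 only on the double deletion arrays, FHL1 lies under it on all 6, and probe set 3982_at reaches 13.78 and 13.92 in the double deletion alone.

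Outside IFH1 the 2 deletion strains were close. Of 4242 genes tested, 1 was called at an adjusted p under 0.05 (0.0236%), and it was IFH1. The count was 0 higher (0%) and 1 lower (0.0236%). At an unadjusted p under 0.05 there were 213 genes (5.02%), 81 of them higher (1.91%) and 132 lower (3.11%). This fit leaves the difference between array sets, described below, in the spread. With array set as a block the count at an unadjusted p under 0.05 was 551 (13.0%). With that block and only the 4 arrays, a fit chosen after seeing the data, it was 702 (16.5%). In the fit without a block, every gene but IFH1 had an adjusted p of 0.473 or more. The 95% interval of the difference lay within 1 of zero on the log2 scale for 4060 genes (95.7%), and its median half-width was 0.39. For these genes a change past 2-fold lay outside the interval, whereas smaller differences may have gone uncalled. The differences had an SD of 0.24 over genes and a median of -0.021. Against WT, which the mutants share as their baseline, the same fit called 774 genes in the double deletion (18.2%) and 903 in the FHL1 deletion (21.3%), with SDs of 0.51 and 0.55.

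The arrays pair up in a way that crosses their experiment numbers, and 1 array stands apart. Exactly equal deposited values linked the first double deletion array with the second FHL1 deletion array (859 probe sets) and both with the first WT array (first and second by experiment). These are called set A, and the others, which share 1 equal value at most, are called set B. The same split appeared in mating type genes. MFA1, which encodes the pheromone a-factor, had 7.86 and 12.83 in the double deletion, 12.87 and 7.79 in the FHL1 deletion, against 7.30 and 7.26 in WT. The alpha-factor gene MF(ALPHA)1 had 12.84 and 6.96 in the double deletion, 6.89 and 13.00 in the FHL1 deletion, against 12.87 and 12.09 in WT. Each deletion group thus held 1 array with MATa markers and 1 with MATalpha markers. Within each set the double deletion and FHL1 deletion arrays had like markers. Both WT arrays had MATalpha markers, so WT did not share this difference between sets. A fit to all arrays with set as a block still takes 1 set difference for every group. In RNA from a whole culture, fewer cells of a type and less RNA per cell cannot be told apart. Over the genes tested, deviations from the group means correlated at -0.63 between arrays of the same experiment number and at 0.63 between arrays of the same set. With array set as a block the fit called IFH1 and 4 further genes, described below, and with only the 4 arrays and that block it called IFH1 alone.

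The array that stands apart is the FHL1 deletion of the second experiment. On it 30 of the genes tested lay more than 1 below every other array, against 0 on the double deletion arrays and the other FHL1 deletion array, and 2 and 3 on the WT arrays. ACC1, acetyl-CoA carboxylase, had 11.92 and 11.52 in the double deletion, 11.34 and 5.63 in the FHL1 deletion, against 12.36 and 12.24 in WT. UBP10, a ubiquitin protease gene, had 11.44 and 11.20 in the double deletion, 10.78 and 6.48 in the FHL1 deletion, against 11.13 and 11.23 in WT. Of these 30 genes, 19 lie on chromosome XIV, 6 on XIII and 3 on XV by their systematic names. The probe sets of those 28 are numbered between 8558 and 9463, a range that holds 508 of the genes tested, and 19 of the 30 have a probe set numbered next to another of them. The part of probe set number and of gene position in these values was not tested. Of 3 genes with 3' and 5' control probe sets, whose 3' minus 5' signal measures RNA integrity, SRB4 was highest on this array, with 2.70 and 1.89 in the double deletion, 2.39 and 3.09 in the FHL1 deletion, against 2.25 and 1.52 in WT. ACT1 and SPT15 did not set it apart. ACT1 had 1.07 and 1.02 in the double deletion and 1.15 and 1.08 in the FHL1 deletion, and SPT15 had 1.23 and 1.14 in the double deletion and 1.22 and 1.11 in the FHL1 deletion.

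This array set most of the large differences. A fitted difference over 1 was seen for 23 genes higher (0.542%) and 2 lower (0.0471%) in the double deletion. Of the 23, 20 were low on that 1 array alone, among them ACC1, UBP10, the RNA polymerase III subunit gene RPC31, the phosphatase gene MSG5 and the transcription termination gene NRD1. The 3 others were OLI1, PTK1 and RDN25-1. RDN25-1, a ribosomal RNA gene, varied within groups, with 12.49 and 12.47 in the double deletion, 11.99 and 7.65 in the FHL1 deletion, against 8.42 and 12.83 in WT. When the other FHL1 deletion array was left out, so that the array in question stood for its group alone, the fit called 33 genes higher. Without the array in question it called 0 higher, 124 genes at an unadjusted p under 0.05, and 8 differences over 1. Besides IFH1, the lower gene past 1 was YDR034C-A, for which the brightest of 7 probe sets was used. With the mean of all probe sets of each gene, IFH1 was the only gene lower past 1. On its brightest probe set YDR034C-A had 11.91 and 9.34 in the double deletion, 12.08 and 12.20 in the FHL1 deletion, against 7.29 and 7.11 in WT. Its difference of -1.51 (SE 0.69, adjusted p = 0.982) came from 1 double deletion array, and it was called only when the other was left out.

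**Figure D2:**
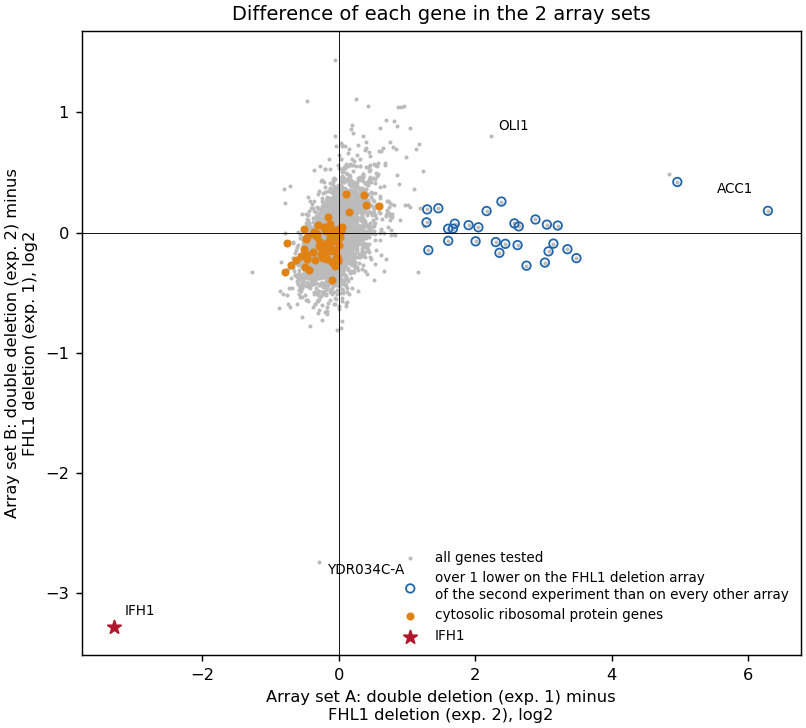
Difference of each of the 4242 genes tested (double deletion minus FHL1 deletion, log2) within array set A on the horizontal axis and within array set B on the vertical axis. IFH1 sits at -3.29 and -3.28, the circled genes that are low on 1 FHL1 deletion array spread along the horizontal axis only, and the ribosomal protein genes lie in the body of the cloud.

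Among the genes whose arrays did not overlap between the strains (532 higher, 12.5%, and 808 lower, 19% of those tested), the 10 with the largest differences in each direction were taken from those with the same sign and more than 50% of the mean difference within each array set. Besides IFH1 none of them passed the test, so they are given as values. This criterion leaves out genes that 1 set carries, such as ACC1 (6.29 in set A, 0.18 in set B), UBP10, MSG5, RDN25-1 and YDR034C-A (-0.29 in set A, -2.74 in set B). OLI1 (Q0130), the mitochondrially encoded subunit of the ATP synthase ring, had 12.36 and 11.67 in the double deletion, against 10.86 and 10.12 in the FHL1 deletion, beside 12.76 and 12.58 in WT. The difference was 1.52 (SE 0.29, interval 0.83 to 2.20, adjusted p = 0.473), 2.23 in set A and 0.80 in set B. ATP6, another mitochondrially encoded subunit of that enzyme, had 10.48 and 10.34 in the double deletion and 9.83 and 9.24 in the FHL1 deletion, a difference of 0.87 (SE 0.22). For both genes the double deletion arrays lay above those of the FHL1 deletion and below those of WT. COX1, a mitochondrially encoded oxidase subunit, differed by 0.17, with 11.58 and 11.61 in the double deletion and 11.59 and 11.26 in the FHL1 deletion. OLI1, ATP6 and COX1 were the 3 of 8 listed mitochondrial genes that were bright enough to test. A further probe set, annotated jointly to COX1, AI5_ALPHA and AI4, is outside the gene table. It had 10.28 and 10.69 in the double deletion, 9.87 and 9.54 in the FHL1 deletion, against 10.39 and 10.85 in WT. Its difference was 0.78 (SE 0.23, limma adjusted p = 0.795 over all probe sets), so the COX1 probe sets differed from each other.

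PTK1 (YKL198C), a protein kinase gene involved in polyamine uptake, had 8.65 and 8.96 in the double deletion, 7.91 and 7.69 in the FHL1 deletion, against 9.22 and 9.61 in WT (difference 1.01, SE 0.19, interval 0.56 to 1.46). ATG15, the vacuolar lipase that breaks down autophagic bodies, had 7.42 and 7.93 in the double deletion, 6.89 and 6.51 in the FHL1 deletion, against 8.16 and 8.54 in WT (difference 0.98, SE 0.24). For PTK1 and ATG15 the double deletion arrays lay between the other 2 groups. NCA3, a protein of the SUN family linked to expression of mitochondrial ATP synthase genes, went past the FHL1 deletion on the side away from WT, with 10.49 and 10.82 in the double deletion, 9.78 and 9.62 in the FHL1 deletion, against 7.99 and 8.19 in WT (difference 0.95, SE 0.17). POP3, a subunit of RNase P and RNase MRP, had 8.75 and 9.45 in the double deletion and 8.52 and 7.95 in the FHL1 deletion (difference 0.87, SE 0.32). With array set as a block, PTK1, ATG15, NCA3 and POP3 were each called at an adjusted p of 0.0473. With that block and only the 4 arrays compared, each had an adjusted p of 0.158.

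PLB3, a phospholipase B, had 9.47 and 9.16 in the double deletion, 8.29 and 8.43 in the FHL1 deletion, against 9.14 and 9.39 in WT. After IFH1 it had the smallest p (difference 0.96, SE 0.17, unadjusted p = 0.000682, adjusted p = 0.473). PAC11, the dynein intermediate chain, had 8.17 and 8.08 in the double deletion and 7.39 and 7.04 in the FHL1 deletion, a difference of 0.91. The oxysterol-binding protein gene SWH1 had 8.25 and 8.48 in the double deletion and 7.54 and 7.56 in the FHL1 deletion, a difference of 0.81. YOR302W, the upstream open reading frame of the arginine gene CPA1, differed by 0.87, with an interval of 0.13 to 1.60. Of these 10 genes, all but NCA3, YOR302W and POP3 were lower in the FHL1 deletion than in WT at an adjusted p under 0.05. In that comparison 8.42% of all genes were called lower. The selection favours this outcome, since the genes were picked partly for low values on the same FHL1 deletion arrays.

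Among the genes chosen by that criterion on the lower side, the differences besides IFH1 went no lower than -0.75. MXR1, a methionine sulfoxide reductase, had 7.92 and 8.00 in the double deletion, 8.62 and 8.79 in the FHL1 deletion, against 8.35 and 8.29 in WT (difference -0.75, SE 0.14, interval -1.07 to -0.42). MET17, which incorporates sulfide into homocysteine, had 11.24 and 11.41 in the double deletion, 11.92 and 12.06 in the FHL1 deletion, against 12.53 and 12.57 in WT (difference -0.66, SE 0.12). For MET17 the 3 groups were ordered without overlap, the double deletion lowest. TRX3, the mitochondrial thioredoxin, had 8.84 and 9.02 in the double deletion, 9.65 and 9.55 in the FHL1 deletion, against 8.17 and 7.70 in WT (difference -0.67, SE 0.18). DAD4, a subunit of the kinetochore's DASH complex, had 9.90 and 9.85 in the double deletion, 10.44 and 10.51 in the FHL1 deletion, against 9.22 and 8.98 in WT (difference -0.60, SE 0.14). TRX3 and DAD4 therefore lay closer to WT in the double deletion than in the FHL1 deletion. YNL134C, YDL085C-A, GDS1, AIM4 and IRC6 completed the group, with differences of -0.68, -0.67, -0.64, -0.62 and -0.60.

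**Figure D3:**
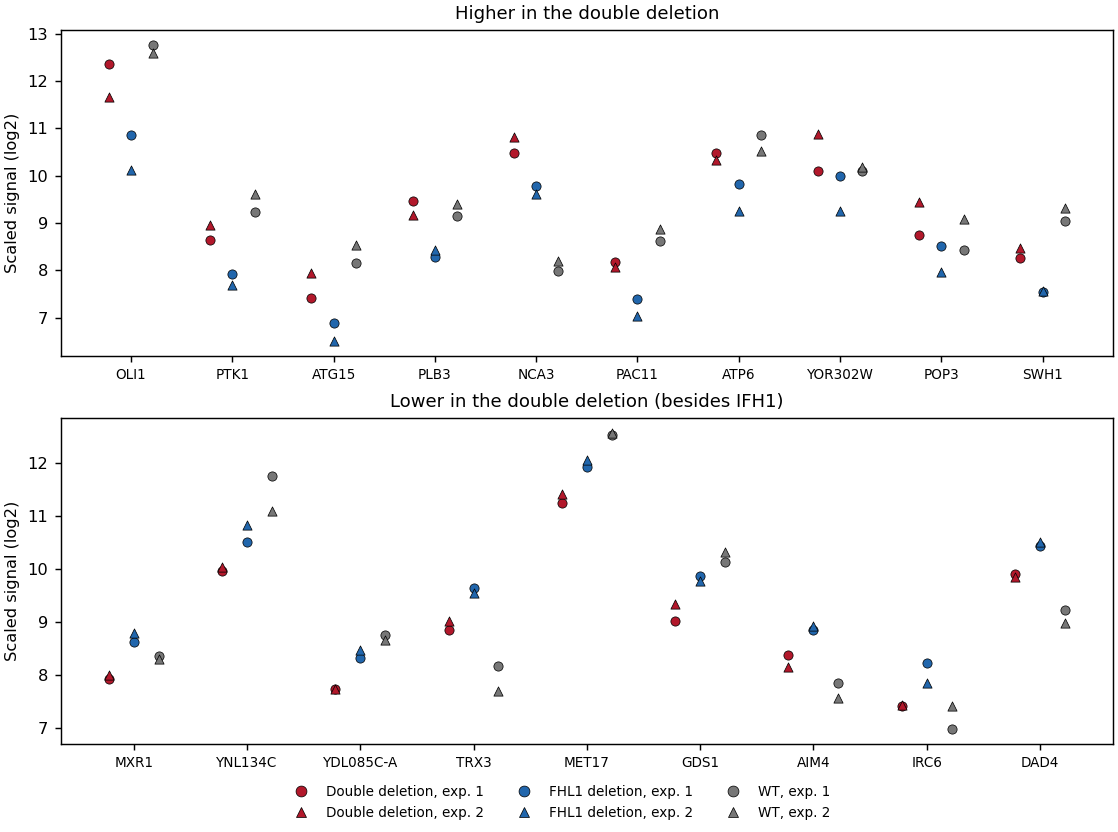
Scaled log2 signal on each array of the genes with the largest differences whose arrays did not overlap between the strains and that kept their sign and more than 50% of the mean difference within each array set, higher (top) and lower (bottom, IFH1 left out). Double deletion arrays stand left of FHL1 deletion and WT arrays for each gene. The differences run from 0.81 for SWH1 to 1.52 for OLI1 and from -0.75 for MXR1 to -0.60 for DAD4.

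The cytosolic ribosomal protein genes, the known targets of FHL1 and IFH1, showed no called change between the strains. Of 137 listed genes, 80 had a probe set of their own and were tested. None rose and none fell, and the 95% interval stayed within 1 of zero for 78 of them. At an unadjusted p under 0.05, 5 were lower and 1 higher, against 3.11% and 1.91% of all genes. Most differences were small and on the lower side: 71 of 80 were below zero, against 2349 of 4242 genes tested, with a median of -0.17, against -0.021 over all genes. The arrays did not overlap for 29 lower and 5 higher, against 19% and 12.5% of all genes. Within set A the median was -0.19, within set B -0.095. It moved to -0.054 when the first double deletion array was left out (50 of 80 below zero) and to -0.23 when the second was (70 of 80). Without the first FHL1 deletion array it was -0.087 (59 of 80), and without the second -0.20 (69 of 80). The size of the shift thus depended on which arrays were kept, and each of these fits leaves the array sets unbalanced between the strains. Side by side and with WT arrays in common, the median was -0.47 in the double deletion against WT, with 39 genes called lower (8.46% of all genes were), and -0.33 in the FHL1 deletion against WT, with 26 called lower (8.42% of all genes were).

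Within the large subunit 38 of 47 genes tested were below zero (median -0.17, range -0.56 to 0.41). RPL33B had 9.67 and 10.03 in the double deletion, 10.36 and 10.45 in the FHL1 deletion, against 11.49 and 11.34 in WT (difference -0.56, SE 0.16, unadjusted p = 0.0107). RPL25, whose protein binds the polypeptide exit region of the ribosome, had 10.75 and 10.98 in the double deletion, 11.25 and 11.45 in the FHL1 deletion, against 12.02 and 11.83 in WT (difference -0.48, SE 0.15). RPL36B had 10.50 and 10.58 in the double deletion, 10.81 and 11.13 in the FHL1 deletion, against 11.38 and 11.46 in WT (difference -0.43). In these 3 genes the groups did not overlap, and the double deletion was the lowest. The acidic stalk gene RPP2A went the other way, with 12.61 and 12.69 in the double deletion, 12.39 and 12.24 in the FHL1 deletion, against 12.98 and 13.11 in WT (difference 0.34, SE 0.11, unadjusted p = 0.0168). RPL15B differed by 0.32. RPL9B had the largest positive value, 0.41, but varied more within a group than between them, with 9.81 and 10.99 in the double deletion and 10.76 and 9.22 in the FHL1 deletion.

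In the small subunit all 33 genes tested were at or below zero, with a median of -0.17 and a range that ended at -0.39. RPS7A had 11.30 and 11.89 in the double deletion, 12.17 and 11.80 in the FHL1 deletion, against 12.89 and 12.79 in WT, so the deletion strains overlapped. RPS26B had 9.64 on both double deletion arrays, 9.83 and 10.20 in the FHL1 deletion, against 11.00 and 10.92 in WT (difference -0.38, SE 0.16). RPS21B had the smallest unadjusted p of the subunit, 0.0207, with 13.92 and 13.88 in the double deletion and 14.07 and 14.18 in the FHL1 deletion. RPS10A differed by -0.33. At the other end, RPS3, RPS31 and RPS15 were level between the strains within the spread. RPS15 had 12.19 and 12.10 in the double deletion, 12.13 and 12.18 in the FHL1 deletion, and 12.90 on both WT arrays (difference -0.012, interval -0.25 to 0.23). Many ribosomal protein genes have a near-identical copy, and a probe set may read both. For the 58 tested probe sets annotated to several ribosomal protein genes at once, the median was -0.17, 55 were below zero and 0 were called in a fit over all probe sets.

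**Figure D4:**
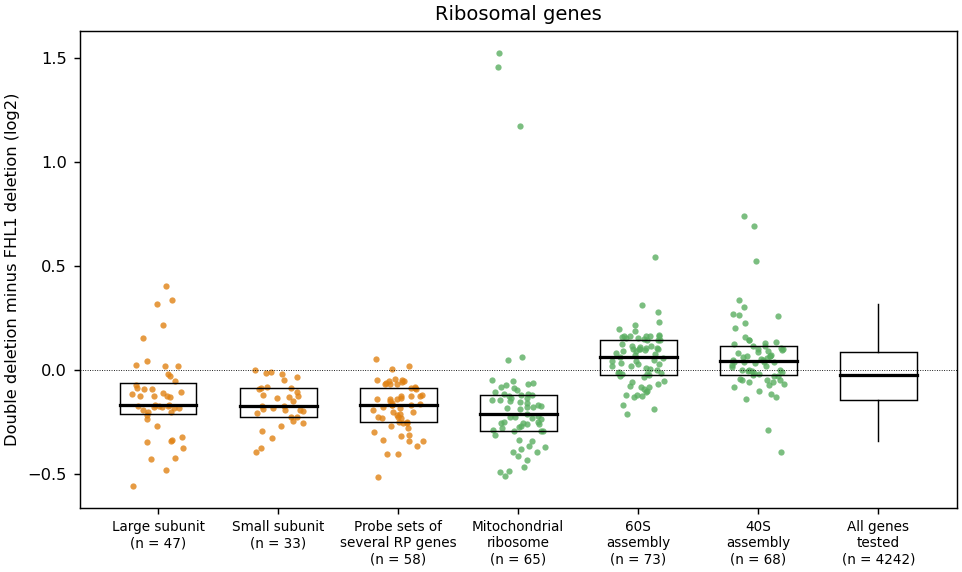
Difference between the double deletion and the FHL1 deletion (log2, vertical axis) for ribosomal protein genes of each subunit, probe sets shared by several of them, mitochondrial ribosomal protein genes, assembly genes and all genes tested. Points are genes or probe sets, boxes run between the quartiles, bold lines are medians, and for all genes the whiskers run between the 5th and 95th percentiles. The first 4 groups have medians between -0.21 and -0.17, all genes -0.021, and both assembly groups lie above zero.

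The factors that act at ribosomal protein promoters differed little apart from IFH1. Of 21 listed, 17 were tested, with 1 called (IFH1) and a median of 0.082. RAP1, which binds most of these promoters, had 8.50 and 8.85 in the double deletion and 8.62 and 8.11 in the FHL1 deletion, overlapping values with a difference of 0.31 (interval -0.21 to 0.82). HMO1, a high-mobility-group protein there, had 10.94 and 11.08 in the double deletion and 11.02 and 10.93 in the FHL1 deletion. SFP1, a nutrient-regulated activator, differed by 0.19. The corepressor gene CRF1 lay at the floor on all 6 arrays. The forkhead gene FKH2 had 7.58 and 7.67 in the double deletion and 7.18 and 7.23 in the FHL1 deletion, and its 0.42 did not pass the test (interval -0.040 to 0.87). ESA1, an acetyltransferase recruited to these promoters, differed by -0.24, and the kinase genes TOR1, TOR2, SCH9, YAK1, TPK2 and TPK3 by -0.076 to 0.26.

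The partners of IFH1 outside the promoter showed no called difference either. UTP22, a small-subunit processome protein, had 9.10 and 8.94 in the double deletion, 9.06 and 8.90 in the FHL1 deletion, against 9.85 and 9.97 in WT. It was called lower against WT in both strains, while the 0.038 between them had an interval of -0.30 to 0.38. RRP7 differed by -0.058. The casein kinase 2 genes differed by 0.12 (CKA1), 0.14 (CKA2), -0.15 (CKB1) and -0.20 (CKB2).

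The genes that make and use ribosomes otherwise stayed near zero. The 73 tested genes of 60S assembly had a median of 0.062 and the 68 of 40S assembly 0.045. Above zero were 49 and 43 of them, against 1893 of 4242 genes tested. RSA4, a late 60S assembly factor, had 9.50 and 9.59 in the double deletion and 9.02 and 8.99 in the FHL1 deletion, a difference of 0.54 (SE 0.15, unadjusted p = 0.00915). NOP58, a core protein of box C/D small nucleolar particles, had 13.26 and 13.15 in the double deletion and 12.87 and 13.01 in the FHL1 deletion. UTP20 differed by 0.74 and BUD21, also of the processome, by -0.39. Translation factors (34 tested) had a median of -0.033 and a range of -0.22 to 0.18, and the 20 cytosolic tRNA synthetases -0.059 and -0.13 to 0.085. RNA polymerase I genes (13) had a median of 0.10, which turned to -0.036 without the first FHL1 deletion array, and those of RNA polymerase III (20) -0.010. No member of these lists was called.

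Mitochondrial ribosomal protein genes had the lowest median of the lists, -0.21 (set A -0.20, set B -0.23), with 60 of 65 below zero, against 2349 of 4242 genes tested. The arrays of 37 lay lower in the double deletion without overlap (56.9%, against 19% of all genes), and 0 lay higher. At an unadjusted p under 0.05, 7 were lower (3.11% of all genes were). MRP10 had 9.03 and 9.10 in the double deletion, 9.50 and 9.61 in the FHL1 deletion, against 9.43 and 9.46 in WT (difference -0.49, SE 0.13, adjusted p = 0.95). MRPL36 had 8.03 and 7.94 in the double deletion and 8.43 and 8.40 in the FHL1 deletion (difference -0.43). MRP2 differed by -0.51. The highest values of the list, 1.53 for MRPL17, 1.46 for MRPL10 and 1.17 for MRPL19, belong to the genes that were low on 1 FHL1 deletion array.

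Most genes of the general stress response and of respiration lay slightly lower in the double deletion than in the FHL1 deletion, and none was called. For the counts that follow, 2349 of all 4242 genes tested were below zero. General stress genes had a median of -0.17 (set A -0.090, set B -0.23), with 35 of 42 below zero. CTT1, the cytosolic catalase, had 8.54 and 8.71 in the double deletion, 9.33 and 8.92 in the FHL1 deletion, against 7.13 and 7.34 in WT (difference -0.50, SE 0.18). RTC3 had 10.16 and 10.01 in the double deletion, 10.58 and 10.46 in the FHL1 deletion, against 8.41 and 8.04 in WT (difference -0.43). Both genes were thus above WT in both strains, and nearer to it in the double deletion. Respiratory genes had a median of -0.11 with 46 of 56 below zero, among them COX5B at -0.44 and INH1, the inhibitor of the ATP synthase, at -0.52, while the malate dehydrogenase gene MDH2 stood at 0.45. Redox genes had a median of -0.14 with 22 of 24 below zero. In that list GRX5, a mitochondrial glutaredoxin, had 8.93 and 9.11 in the double deletion and 9.42 and 9.52 in the FHL1 deletion (difference -0.45, SE 0.14). Proteasome genes had a median of -0.094, with 32 of 39 below zero.

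Sulfur and methionine genes (29 tested) had a median of -0.15 and 6 members lower at an unadjusted p under 0.05 (3.11% of all genes were). Besides MET17 these included MMP1, the S-methylmethionine permease, with 8.46 and 8.57 in the double deletion and 8.88 and 9.20 in the FHL1 deletion (difference -0.52, SE 0.17). MET2, which acetylates homoserine, had 8.43 and 8.99 in the double deletion and 9.24 and 9.27 in the FHL1 deletion (difference -0.55, SE 0.20). Other amino acid synthesis genes (62) had a median of -0.016.

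Cell wall genes lay mostly on the higher side, though none was called. Of 43 tested, 37 were above zero, against 1893 of 4242 genes tested (median 0.10, set A 0.085, set B 0.14). At an unadjusted p under 0.05, 7 were higher and 0 lower, against 1.91% and 3.11% of all genes. The arrays lay higher without overlap for 16 (37.2%, against 12.5% of all genes) and lower for 0. GSC2, a catalytic subunit of the glucan synthase, had 10.03 and 10.18 in the double deletion, 9.62 and 9.35 in the FHL1 deletion, against 9.04 and 8.87 in WT (difference 0.62, SE 0.16). YPS3, a cell-surface protease of the yapsin family, had 10.90 and 11.31 in the double deletion, 10.63 and 10.29 in the FHL1 deletion, and 9.73 on both WT arrays (difference 0.64, SE 0.19). NCW2, a cell wall protein, had 11.85 and 12.22 in the double deletion, 11.68 and 11.46 in the FHL1 deletion, against 10.93 and 10.82 in WT (difference 0.47, SE 0.16). In these 3 genes both strains lay above WT and the double deletion was the highest. The others at an unadjusted p under 0.05 were YPS1 (0.45), SCW10 (0.44), PIR3 (0.47) and TIR4 (0.73).

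Genes of nutrient uptake lay in both directions and none was called. In the phosphate list (24 tested, median 0.10, but -0.070 without the double deletion array of the second experiment) PHO4, its transcription factor, had 7.88 and 7.74 in the double deletion, 7.03 and 7.08 in the FHL1 deletion, against 8.51 and 8.52 in WT (difference 0.76, SE 0.14, unadjusted p = 0.000949). PHO87, a low-affinity phosphate transporter, had 10.46 and 10.89 in the double deletion and 10.20 and 9.61 in the FHL1 deletion (difference 0.77). Of 9 hexose transport genes, HXT1 had 10.72 and 10.73 in the double deletion, 10.26 and 10.15 in the FHL1 deletion, against 11.18 and 11.51 in WT (difference 0.52, SE 0.15). HXT2 differed by 0.55 and HXT7 by -0.43. Among arginine genes the regulator ARG80 had 8.63 and 8.75 in the double deletion and 8.20 on both FHL1 deletion arrays (difference 0.49, SE 0.14). Iron genes had a median of 0.16, with 21 of 26 above zero (1893 of 4242 over all genes tested) and none at an unadjusted p under 0.05.

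**Figure D5:**
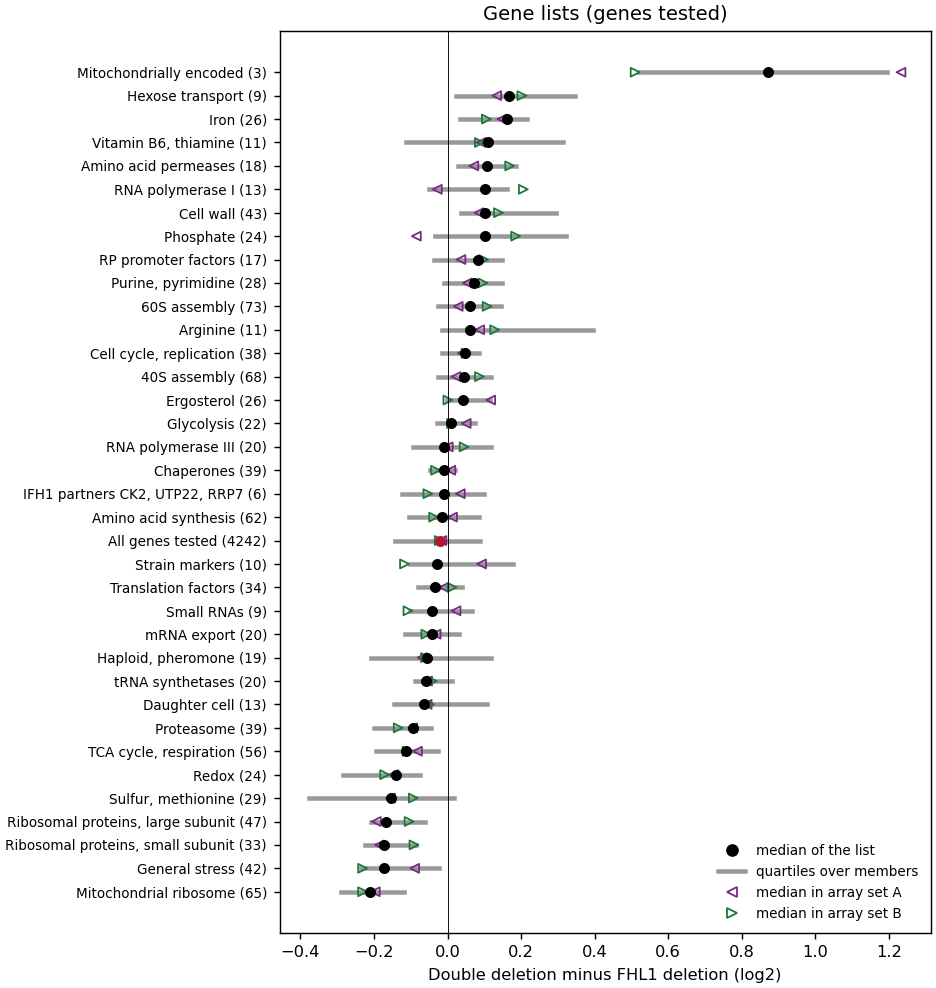
Median difference between the double deletion and the FHL1 deletion (log2, horizontal axis) of each gene list, with quartiles over its members and the medians within array sets A and B. The number of genes tested stands in parentheses, and the 2 mating type lists are left out. Apart from the 3 mitochondrially encoded genes at 0.87, the medians lie between -0.21 and 0.17.

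The remaining lists gave no called gene and small medians. Glycolytic genes (22 tested) had a median of 0.008, chaperones (39) -0.010, cell cycle and replication genes (38) 0.048, ergosterol genes (26) 0.043, and purine and pyrimidine genes (28) 0.072. Daughter-cell genes (13) had -0.064, haploid and pheromone genes (19) -0.057, RNA export genes (20) -0.043 and small RNAs (9) -0.043. Amino acid permeases (18) had 0.11, which turned to -0.11 without the double deletion array of the second experiment, and vitamin B6 and thiamine genes (11) had 0.11, which turned to -0.060 with no filter on dim genes. HIS3, which serves in histidine synthesis and as a common marker for selection, was alike in the strains, with 10.23 and 10.02 in the double deletion, 10.06 and 10.24 in the FHL1 deletion, against 7.13 and 6.99 in WT. The 4 tested MATalpha genes and the 3 tested MATa genes differed by -0.39 to 0.016, and each strain held an array of either type. By chromosome, the median difference of nuclear genes lay between -0.075 and 0.083.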

How the data were processed

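The authors deposited 1 value for each of 9335 probe sets on each array, which by its range is on a log2 scale. How they summarized and normalized the arrays, and with what genome build, is not stated in the labels or files. Arrays carry no read depth, and their number (2 per group) limits the precision. Of the probe sets, 6504 name 1 gene in the platform annotation, 328 several and 2503 none. Gene names were updated through RefSeq.

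Each array was centred on the median of the 6504, values were floored at their 10th percentile (5.63), the brightest probe set stood for its gene, and the dimmest 25% of genes by mean, 1414 of 5656, were not tested. limma 3.58.1 in R 4.3.3 fitted 1 mean per group over all 6 arrays (3 residual degrees of freedom) with a trended spread and Benjamini-Hochberg adjustment (threshold 0.05). Experiment numbers do not pair the double deletion arrays with those of the FHL1 deletion (r = -0.63).

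The comparison and its 37 gene lists were chosen with earlier results of these data known. The genes named were drawn from IFH1, FHL1 and their neighbours, genes past the threshold, the 10 largest differences per direction without overlap and with the same sign and over 50% of the mean difference in each array set, up to 3 members per list by smallest p, all promoter factors, partners and markers, and the 3 highest and lowest ribosomal protein genes per subunit. Some promoter factors, selection markers and other members of these groups are not given in the text. Others (ACC1, UBP10, NRD1, RDN25-1, YDR034C-A, the 3 MRPL genes high in the mitochondrial list, YPS1, SCW10, PIR3, TIR4) were chosen after their values were seen. Alternatives changed the scaling, floor, filter, probe set choice, block, arrays and spread.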

Additional observations from a re-analysis of the deposited data

Results flagged for a closer look

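A signal appeared outside the gene table. Probe set 3982_at, to which the platform annotation gives no gene, had 13.78 and 13.92 in the double deletion, against the floor of 5.63 on both FHL1 deletion arrays and 5.84 and 6.08 in WT. The difference of 8.22, taken from that floor (SE 0.15, limma adjusted p = 3.51e-06 over 7001 probe sets), was present in both array sets, at 8.15 in set A and 8.29 in set B. What this probe set measures is not given in the sources used here. In that fit over all probe sets it and IFH1 were the 2 called.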

How the results depend on the processing

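IFH1 was called lower in each of the 20 other settings except when the 50% of dimmest genes were left out, which removed it from the test and left 0 genes lower. Its difference ran from -3.75 with the floor at the 1st percentile to -1.93 with the floor at the 25th, and its adjusted p reached 0.0384 with no filter. Leaving out 1 array at a time moved it between -3.32 and -3.24. The count of genes higher was 0 in every setting except 2: with array set as a block it was 4, and over the fits without 1 array it ran from 0 to 33. The count lower ran from 1 to 2 in those fits. The ribosomal protein median ran from -0.23 to -0.054 in them.

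With experiment number as a replicate block the fit called 1 gene lower and 0 higher, with IFH1 at an adjusted p of 0.00335 and 137 genes at an unadjusted p under 0.05. The crossed pairing by array set over the 4 arrays, chosen after seeing the data, called 1 gene, with 702 (16.5%) at an unadjusted p under 0.05. Without the first FHL1 deletion array, OLI1 (1.89), RPC31 (3.02), LYS9 (1.22) and MSG5 (3.15) were called. Over 158 named genes, 7 of 2159 differences changed sign across the settings that keep all arrays or only the 4 compared, and 67 of 948 did so, in 41 genes, when 1 array was left out. The deposited scaling put the median of all genes at -0.049. With 2 arrays per group, the median half-width of the interval was 0.39, before any adjustment for the number of genes tested. Differences smaller than about this could not be resolved for a typical gene. A call needed more than that. In the fit without a block, OLI1 (1.52) and PLB3 (0.96) were not called, both at a limma adjusted p of 0.473.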

Other observations

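Probe sets of a family of helicases encoded in the subtelomeric Y' elements, each annotated to several copies and therefore outside the gene table, were looked at after their values had been seen. Of 24 such probe sets 19 were tested, and 18 were higher in the double deletion (median 0.93, set A 0.57, set B 1.19). None was called, 9 were higher at an unadjusted p under 0.05 (3.20% of all 7001 probe sets tested were), 9 differed by more than 1 (1.46% of all did), and for 13 both double deletion arrays lay above both FHL1 deletion arrays (16.2% of all did). Probe set 3834_s_at had 9.62 and 11.02 in the double deletion, 5.94 and 5.79 in the FHL1 deletion, against 10.46 and 11.20 in WT (difference 4.45, SE 0.46, adjusted p = 0.0623). Probe set 3187_s_at had 8.11 and 9.41 in the double deletion, the floor of 5.63 on both FHL1 deletion arrays, and 9.15 and 9.65 in WT. In both probe sets the FHL1 deletion was the low group, and the double deletion overlapped WT. These probe sets share sequence and are not independent of each other.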
